A study of Homo sapiens with 8 samples.

Results

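The inhibitor AZD6738 was set against its solvent DMSO in MCF10A cells that were not irradiated, which takes 4 of the 8 libraries of the series. These were the columns named for AZD6738 and for the control, 2 libraries in each group, and all genes with a symbol were read in them. Where a symbol had several entries, the one with the highest mean was kept, which left 9463 named genes among 14645 loci. MCF10A cells are human breast epithelial cells that were immortalised and do not form tumours, and the labels name no genetic change or subclone of it. The first group received 250 nM AZD6738 and the second received DMSO, both kept on for 3 days, in a medium with horse serum, EGF, hydrocortisone, cholera toxin and insulin that all groups shared. The other 4 libraries came from cells irradiated with 20 Gy in AZD6738 (AZD6738+IR) or in DMSO (IR), with the drug or solvent added 2 hours ahead of the irradiation. They entered the filter and the estimate of the spread, and gave the same inhibitor contrast a second time. The group means of that second contrast come from other libraries. Both contrasts share the estimate of the spread, so their p-values are not independent. The title of the series is about the interferon response to radiation when ATR is blocked, and the inhibitor alone shows what the drug does before any radiation.

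ATR is a protein kinase that is recruited by its partner ATRIP to single-stranded DNA coated with the protein RPA, as found at stalled replication forks and at resected breaks. It is activated there by TOPBP1 or ETAA1 and phosphorylates CHEK1, which restrains CDC25 phosphatases, late origins and entry into mitosis. Cycling cells also draw on it during an ordinary S phase. AZD6738 occupies the kinase domain of the protein, so the amount of ATR transcript does not report on whether the kinase was blocked. ATR measured 5.858 and 6.098 FPKM in AZD6738 libraries, against 5.889 and 6.225 FPKM in DMSO libraries, and the ranges overlapped.

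The unit of the table is not named, and FPKM was assumed, which scales fragments by transcript length and library size, so read numbers cannot be told. Total FPKM lay between 864305.7 and 875655.1 in these 4 libraries, and the 4 most abundant loci held 53.27% to 54.12% of it. Levels below are in FPKM, in the order library A then library B. Means carry the SD over n = 2 libraries, and log2 fold changes with their SE come from limma on log2(FPKM + 1), a scale that compresses the change of weakly expressed genes. A locus is called where the Benjamini-Hochberg adjusted p over all 12809 tested loci is under 0.05. Nothing in the labels says whether A and B were separate cultures, so p-values cover the spread between these libraries, technical or not. In bulk RNA, fewer cells of a type and less RNA per cell cannot be told apart.

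The cells carried the epithelial transcripts that their label names. KRT17, a basal keratin, measured 1384 and 1368 FPKM in AZD6738 libraries and 1165 and 1137 FPKM in DMSO libraries. KRT7, a keratin of simple epithelium, measured 1280 and 1240 FPKM in AZD6738 libraries and 1171 and 1075 FPKM in DMSO libraries. TP63, the transcription factor that defines basal epithelium, measured 11.63 and 11.67 FPKM with the inhibitor and 12.17 and 11.69 FPKM with DMSO. Of 17 markers of blood and immune cells, only CD14, CSF1R and CD68 were found by symbol in the table.

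Few loci were called between AZD6738 and DMSO. With 2 libraries a group, a locus that was not called cannot be taken as unchanged. Of 12809 loci, 19 were called, or 0.148%, with 12 higher (0.0937%) and 7 lower (0.0546%). Among the 8666 tested genes with a symbol, 8 rose (0.0923%) and 5 fell (0.0577%), 13 in all or 0.15%. The median absolute log2 fold change over all loci was 0.07 and its 95th centile was 0.344. In irradiated cells the same drug gave a median of 0.237 and a 95th centile of 0.932, and 6546 loci were called there, or 51.1%. The pairs of libraries show the same scale. Between an AZD6738 and a DMSO library the median absolute log2 difference was 0.0775 to 0.0866, against 0.0518 within the AZD6738 pair and 0.0674 within the DMSO pair. A total of 87 loci differed by a log2 fold change of at least 1, yet in only 40 of them did the groups not overlap and only 6 were called. Over all loci, AZD6738 lay above DMSO without overlap in 24.3% and below it in 25.9%. Called genes were picked on these same libraries, so the lack of overlap given for them adds no support.

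**Figure D1:**
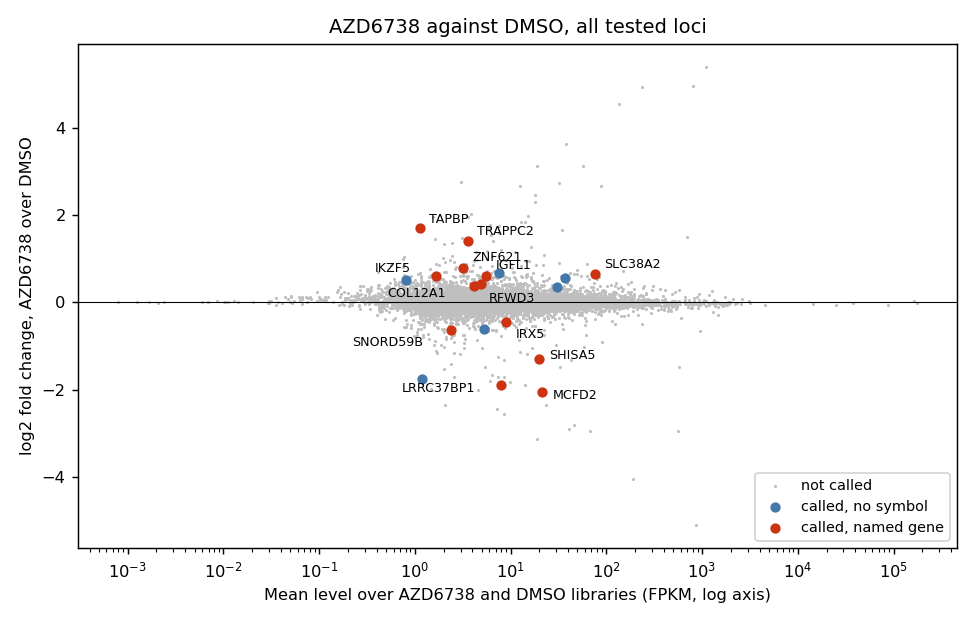
Each point is a tested locus, with its mean level over the AZD6738 and DMSO libraries on a log axis in FPKM (x) and its log2 fold change, AZD6738 over DMSO (y). The 13 called genes with a symbol are red and named, the 6 called loci without one are blue, and most of the 87 loci beyond a log2 fold change of 1 in either direction are grey, not called.

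Among the genes that rose, SLC38A2 had the highest level. It encodes the sodium-coupled transporter SNAT2, which brings small neutral amino acids such as glutamine and alanine into the cell, and it lies at chr12:46358188-46372773 (coordinates throughout are those of RefSeq genes on GRCh38.p14). SLC38A2 measured 91.34 and 94.24 FPKM in AZD6738 libraries, against 59.97 and 56.91 FPKM in DMSO libraries. The lower AZD6738 library stood well above the higher DMSO library. The mean was 1.59-fold that of DMSO, at 92.8 ± 2.1 against 58.4 ± 2.2 FPKM, at a log2 fold change of 0.66 ± 0.039 and an adjusted p = 0.0081. The call held with any 1 of the 8 libraries left out, and ended when only the 4 non-irradiated libraries were fitted (adjusted p = 0.0614).

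TRAPPC2 showed the largest rise among the called genes that were detected in both groups. Its product, sedlin, is a small subunit of the TRAPP complex, which tethers vesicles on the way from the endoplasmic reticulum to the Golgi (chrX:13712245-13734620). TRAPPC2 measured 5.374 and 5.984 FPKM in AZD6738 libraries, against 1.498 and 1.5 FPKM in DMSO libraries. This is 3.79-fold, without overlap, and the log2 fold change was 1.42 ± 0.083 at adjusted p = 0.0081, and it was called under each of the 20 alternatives that gave it a value. The neighbouring RAB9A, which lies 1740 bases away, measured 30.14 and 29.28 FPKM in AZD6738 libraries and 27.76 and 29.24 FPKM in DMSO libraries. RAB9A was not called (adjusted p = 0.548).

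A pair of genes for zinc finger proteins also rose. ZNF621 (chr3:40523106-40539782), whose product is named for its zinc fingers, measured 4.294 FPKM in both AZD6738 libraries, against 2.166 and 1.985 FPKM in DMSO libraries. IKZF5 (chr10:122990806-123008795), a member of the Ikaros family of transcription factors, measured 2.245 and 2.217 FPKM in AZD6738 libraries, against 1.183 and 1.055 FPKM in DMSO libraries. Both genes were near 2-fold higher without overlap, at 2.07-fold for ZNF621 and 1.99-fold for IKZF5. The log2 fold changes were 0.78 ± 0.049 (adjusted p = 0.0081) and 0.61 ± 0.047 (adjusted p = 0.019). The ZNF621 call ended when only the 4 non-irradiated libraries were fitted (adjusted p = 0.0632), and the IKZF5 call ended there and in 5 of the 8 fits with a library left out.

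IGFL1, RFWD3 and COL12A1 rose by smaller amounts. IGFL1 (chr19:46229742-46231243), a secreted protein of the insulin growth factor-like family, measured 6.984 and 6.885 FPKM in AZD6738 libraries, against 4.261 and 4.209 FPKM in DMSO libraries (1.64-fold, log2 fold change 0.60 ± 0.047, adjusted p = 0.019). RFWD3 (chr16:74621399-74666877), a ubiquitin ligase that acts on RPA at stalled forks and counts among the Fanconi anaemia genes, measured 5.774 and 5.858 FPKM in AZD6738 libraries, against 3.958 and 4.161 FPKM in DMSO libraries (1.43-fold, 0.43 ± 0.042, adjusted p = 0.0486). COL12A1 (chr6:75084326-75206053), a collagen that binds the surface of other collagen fibrils, measured 4.822 and 4.89 FPKM in AZD6738 libraries, against 3.38 and 3.592 FPKM in DMSO libraries (1.39-fold, 0.38 ± 0.038, adjusted p = 0.04998). The libraries of the 2 groups did not overlap for any of these 3 genes. With a library left out, IGFL1 was called in 2 of 8 fits, and RFWD3 and COL12A1 in 0 of 8.

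The eighth gene that rose, TAPBP, rests on a single table entry and is uncertain. TAPBP encodes tapasin, which holds class I molecules next to the peptide transporter while they are loaded (chr6:33299694-33314078). The entry kept was listed at 2.221 and 2.307 FPKM in AZD6738 libraries and at 0 in both DMSO libraries, with adjusted p = 0.000282. The symbol has 3 entries, and another of them was listed at 0 and 2.253 FPKM in AZD6738 libraries and at 0 in both DMSO libraries. The third held 0.3974 and 0.02362 FPKM in AZD6738 libraries and 0.2842 and 0.8132 FPKM in DMSO libraries. The call ended when entries of a symbol were summed, and again when the overlapping gene RGL2 was added, where adjusted p = 0.207. RGL2, which shares 1 end of the locus, was listed at 0 and 1.464 FPKM in AZD6738 libraries and at 1.361 and 1.442 FPKM in DMSO libraries.

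MCFD2 had the lowest log2 fold change among the called genes with a symbol. It encodes a small calcium-binding protein that works with the cargo receptor LMAN1 to carry coagulation factors out of the endoplasmic reticulum (chr2:46901870-46941855). MCFD2 measured 7.185 and 8.058 FPKM in AZD6738 libraries, against 35.1 and 33.98 FPKM in DMSO libraries. The groups were far apart, 4.53-fold lower with the inhibitor at 7.62 ± 0.62 against 34.5 ± 0.79 FPKM, at a log2 fold change of -2.05 ± 0.056 and an adjusted p = 0.000282. The call held under every alternative run. TTC7A, which overlaps it, measured 3.997 and 4.26 FPKM in AZD6738 libraries and 4.218 and 4.011 FPKM in DMSO libraries. LMAN1 measured 44.92 and 43.87 FPKM in AZD6738 libraries and 46.08 and 46.73 FPKM in DMSO libraries, with adjusted p = 0.465.

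LRRC37BP1, a transcribed pseudogene of the LRRC37 family (chr17:30576465-30637466), measured 2.643 and 3.021 FPKM in AZD6738 libraries, against 12.48 and 13.83 FPKM in DMSO libraries. It was 4.64-fold lower without overlap (log2 fold change -1.89 ± 0.078, adjusted p = 0.00157) and was called under every alternative run. The sources used here do not say how reads were shared between near-identical copies of this family, so its level is uncertain. SHISA5 (chr3:48467876-48504810), which encodes scotin, a p53-inducible protein of the endoplasmic reticulum and nuclear envelope, measured 11.13 and 10.87 FPKM in AZD6738 libraries, against 29.1 and 27.78 FPKM in DMSO libraries. It was 2.59-fold lower (log2 fold change -1.30 ± 0.096, adjusted p = 0.0178). The call ended without any 1 of the 4 AZD6738 and DMSO libraries, where adjusted p reached 0.0784. ATRIP, the partner of ATR, lies 230 bases from SHISA5 and measured 3.653 and 3.672 FPKM in AZD6738 libraries and 3.975 and 3.808 FPKM in DMSO libraries (adjusted p = 0.73).

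The other two genes that fell were IRX5 and SNORD59B. IRX5 (chr16:54930865-54934485), a homeobox transcription factor, measured 7.294 and 7.722 FPKM in AZD6738 libraries, against 10.3 and 10.91 FPKM in DMSO libraries (1.41-fold lower, log2 fold change -0.45 ± 0.045, adjusted p = 0.04998). SNORD59B (chr12:56643680-56643754), a small nucleolar RNA of the C/D box class that lies inside the gene ATP5B, measured 1.64 and 1.696 FPKM in AZD6738 libraries, against 3.12 and 3.117 FPKM in DMSO libraries (1.87-fold lower, -0.63 ± 0.046, adjusted p = 0.0173). Neither gene overlapped between the groups. With a library left out, IRX5 was called in 0 of 8 fits and SNORD59B in 4 of 8. ATP5B, a subunit of the mitochondrial ATP synthase, measured 517.5 and 525.2 FPKM in AZD6738 libraries and 511.9 and 525.2 FPKM in DMSO libraries. The sum of ATP5B and SNORD59B gave a log2 fold change of 0.004. That sum is nearly all ATP5B, so it cannot show whether SNORD59B differed.

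**Figure D2:**
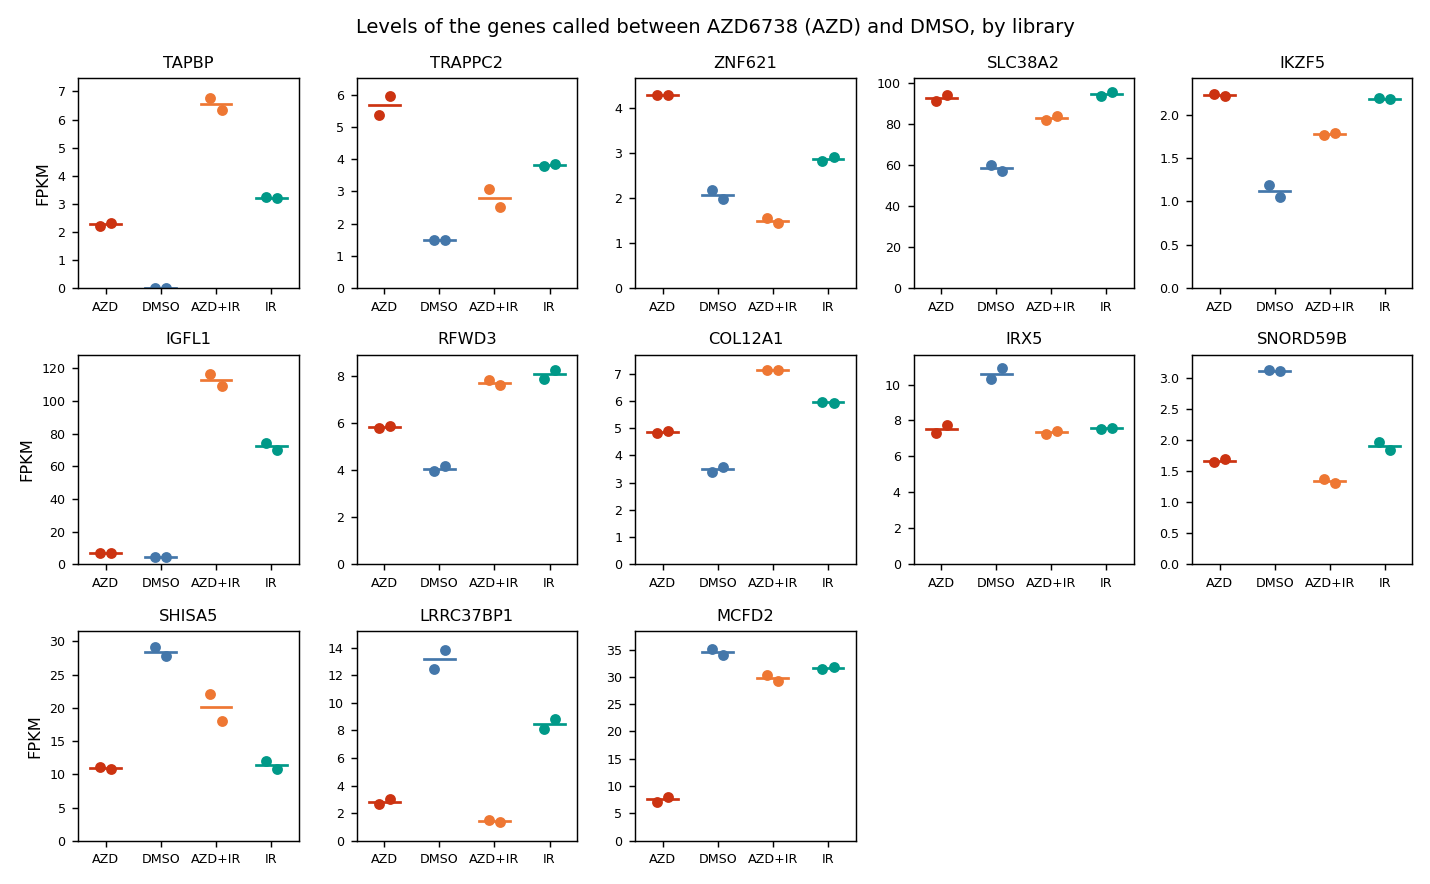
Points are single libraries, lines are group means, and the y axis of each panel is in FPKM and starts at 0. AZD stands for AZD6738. In all 13 panels the 2 AZD6738 points and the 2 DMSO points do not overlap, for MCFD2 at 7.185 and 8.058 against 35.1 and 33.98 FPKM. The genes were picked by adjusted p on these same libraries, so this adds no support to the calls.

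The 6 called loci without a symbol are assembled loci for which the table gives no name, so only their size is given. The 4 that rose were 1.3-fold to 2.32-fold higher with AZD6738. The locus at 2.32-fold measured 1.097 and 1.187 FPKM in AZD6738 libraries, against 0.4784 and 0.5053 FPKM in DMSO libraries. That locus averaged under 1 FPKM over these libraries and was tested only because of its level in irradiated cells. Of the 2 that fell, 1 measured 3.796 and 4.05 FPKM in AZD6738 libraries and 6.35 and 6.745 FPKM in DMSO libraries. The other was listed at 0 in both AZD6738 libraries and at 2.455 and 2.335 FPKM in DMSO libraries.

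The contrast between AZD6738+IR and IR set the same drug between other libraries, with the same estimate of the spread as the first comparison. Of the 13 called genes, 7 had the same direction there and 5 of those were called, while 5 were called in the opposite direction. The test of the difference between the 2 inhibitor effects called 10 of the 13, where 35.5% of all loci were called. All 6 loci without a symbol kept their direction and were called again, and 2 of them differed in size. In irradiated cells 51.1% of loci were called, 19.6% higher and 31.5% lower, so a repeated call says little about a single gene.

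LRRC37BP1 and IGFL1 gave nearly equal effects in both settings. LRRC37BP1 measured 1.519 and 1.372 FPKM in AZD6738+IR libraries, against 8.122 and 8.81 FPKM in IR libraries, a log2 fold change of -1.95 that differed from the one without radiation by -0.07 (adjusted p = 0.673). IGFL1 measured 116.6 and 109.0 FPKM in AZD6738+IR libraries, against 74.19 and 70.36 FPKM in IR libraries. Its level was far above that of the non-irradiated libraries, yet the inhibitor effect was 0.63 against 0.60, a difference of 0.03 (adjusted p = 0.721). COL12A1 rose in both settings, at 0.23 with radiation (adjusted p = 0.00439), with a difference of -0.16 that did not pass (adjusted p = 0.0692). SNORD59B fell and TAPBP rose in both, each by less with radiation.

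SLC38A2, TRAPPC2, ZNF621 and IKZF5 rose with the inhibitor alone and were lower with it in irradiated cells. SLC38A2 measured 81.91 and 83.74 FPKM in AZD6738+IR libraries, against 93.73 and 95.45 FPKM in IR libraries, a log2 fold change of -0.19 (adjusted p = 0.00949). Its highest AZD6738 library, at 94.24 FPKM, lay within the range of the IR libraries. TRAPPC2 measured 3.093 and 2.521 FPKM in AZD6738+IR libraries, against 3.781 and 3.863 FPKM in IR libraries (-0.34, adjusted p = 0.016). ZNF621 measured 1.545 and 1.44 FPKM in AZD6738+IR libraries, against 2.816 and 2.919 FPKM in IR libraries (-0.63, adjusted p = 0.000247). IKZF5 measured 1.771 and 1.791 FPKM in AZD6738+IR libraries, against 2.195 and 2.18 FPKM in IR libraries (-0.20, adjusted p = 0.0158). For all 4 genes the groups did not overlap in either setting and the direction was opposite, and the difference between the effects was called. Against the same DMSO libraries, IR gave log2 fold changes of 0.69 for SLC38A2, 0.95 for TRAPPC2, 0.33 for ZNF621 and 0.59 for IKZF5. Of the 13 called genes, 8 were higher and 5 lower than DMSO with AZD6738 and with IR alike. The part of the shared DMSO libraries in this was not tested.

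SHISA5 turned the other way. It measured 22.09 and 18.06 FPKM in AZD6738+IR libraries, against 11.95 and 10.85 FPKM in IR libraries, a log2 fold change of 0.76 (adjusted p = 0.00143). Its difference of 2.06 between the inhibitor effects was the largest of the 13 genes. MCFD2 measured 30.36 and 29.26 FPKM in AZD6738+IR libraries, against 31.5 and 31.86 FPKM in IR libraries (-0.09, adjusted p = 0.251). The AZD6738 libraries without radiation were the only low ones of the 8 for MCFD2, and the difference between the effects was 1.96 (adjusted p = 5.8e-05). RFWD3 and IRX5 gave log2 fold changes of -0.06 and -0.03 in irradiated cells, neither of them called. IR against the same DMSO libraries gave -1.25 for SHISA5, -0.12 for MCFD2, 0.84 for RFWD3 and -0.44 for IRX5.

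**Figure D3:**
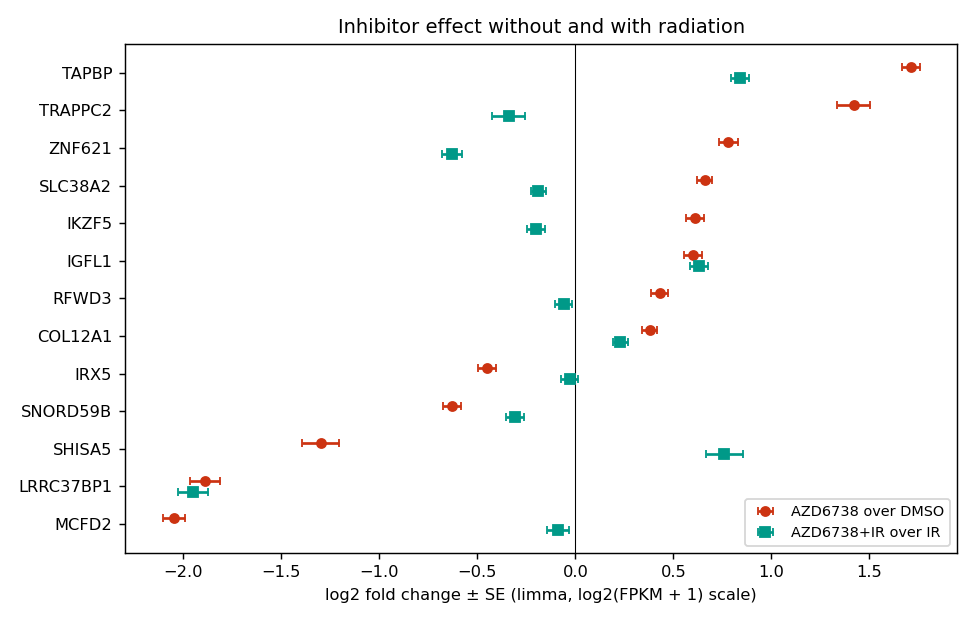
The x axis is the limma log2 fold change on the log2(FPKM + 1) scale with its SE as bars, for AZD6738 over DMSO (circles) and AZD6738+IR over IR (squares), and each row is a called gene. LRRC37BP1 and IGFL1 have circles and squares within 0.07 of each other, MCFD2 lies at -2.05 without radiation and -0.09 with it, and SHISA5 lies at -1.30 and 0.76.

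Genes that came next by unadjusted p, restricted to means of 5 FPKM or more on the higher side and to groups without overlap, did not pass the threshold. In all, 929 loci (7.25%) were higher and 829 (6.47%) lower at an unadjusted p under 0.05. Among the first 10 above were IL1A, SLFN5, ANXA3, GADD45A, PSMD14, MDM2, PTTG1IP, SERTAD1 and ZNF195, with adjusted p from 0.0548 to 0.086 and folds from 1.2 to 1.61. IL1A, the alarm cytokine interleukin 1 alpha, measured 54.01 and 49.18 FPKM in AZD6738 libraries, against 33.54 and 30.41 FPKM in DMSO libraries (adjusted p = 0.0548). ANXA3, a calcium-dependent membrane-binding annexin, measured 129 and 124.9 FPKM in AZD6738 libraries, against 95.42 and 97.17 FPKM in DMSO libraries (adjusted p = 0.0595). SLFN5, of the Schlafen family, measured 13.81 and 13.14 FPKM in AZD6738 libraries, against 9.975 and 9.6 FPKM in DMSO libraries (adjusted p = 0.0595).

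The first 10 below were PLAT, AKR1C2, NOL9, AKR1C1, KCNK5, EPS15, CCDC85B, AKR1C3, ANAPC10 and CD14, with adjusted p from 0.0679 to 0.106. PLAT, the tissue plasminogen activator, measured 20.77 and 21.86 FPKM in AZD6738 libraries, against 27.86 and 27.27 FPKM in DMSO libraries. NOL9, a kinase of ribosomal RNA processing, measured 4.314 and 4.524 FPKM in AZD6738 libraries, against 7.205 and 7.074 FPKM in DMSO libraries. The 3 AKR1C genes encode aldo-keto reductases that act on steroids and are related in sequence. Reads may have been shared among them, so they are not taken as separate measurements. AKR1C1, AKR1C2 and AKR1C3 were 1.34-fold, 1.29-fold and 1.28-fold lower with AZD6738.

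Lists of genes show smaller differences spread over many members, and 20 lists are described by counts. At all loci, both AZD6738 libraries were above both DMSO libraries in 24.3% and below both in 25.9%, and the median log2 fold change was -0.004. These shares are what a list is read against. With 2 libraries a group, an exact permutation test of any summed level could not go below p = 0.333. No list has a test, and its members are not independent of each other. Members without a symbol in the filtered table could not be counted. A symbol was found for 39 of 59 interferon-stimulated genes and 18 of 27 ATR pathway genes, and many other lists also lack members. Some members averaged under 1 FPKM in the AZD6738 and DMSO libraries and passed the filter only through irradiated libraries, and counts without them stand beside those lists. Where leaving out a library moved a median by over 1.5 times, the value without it is given. Beyond the 3 members of a list with the lowest p, members were named after their values were seen.

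**Figure D4:**
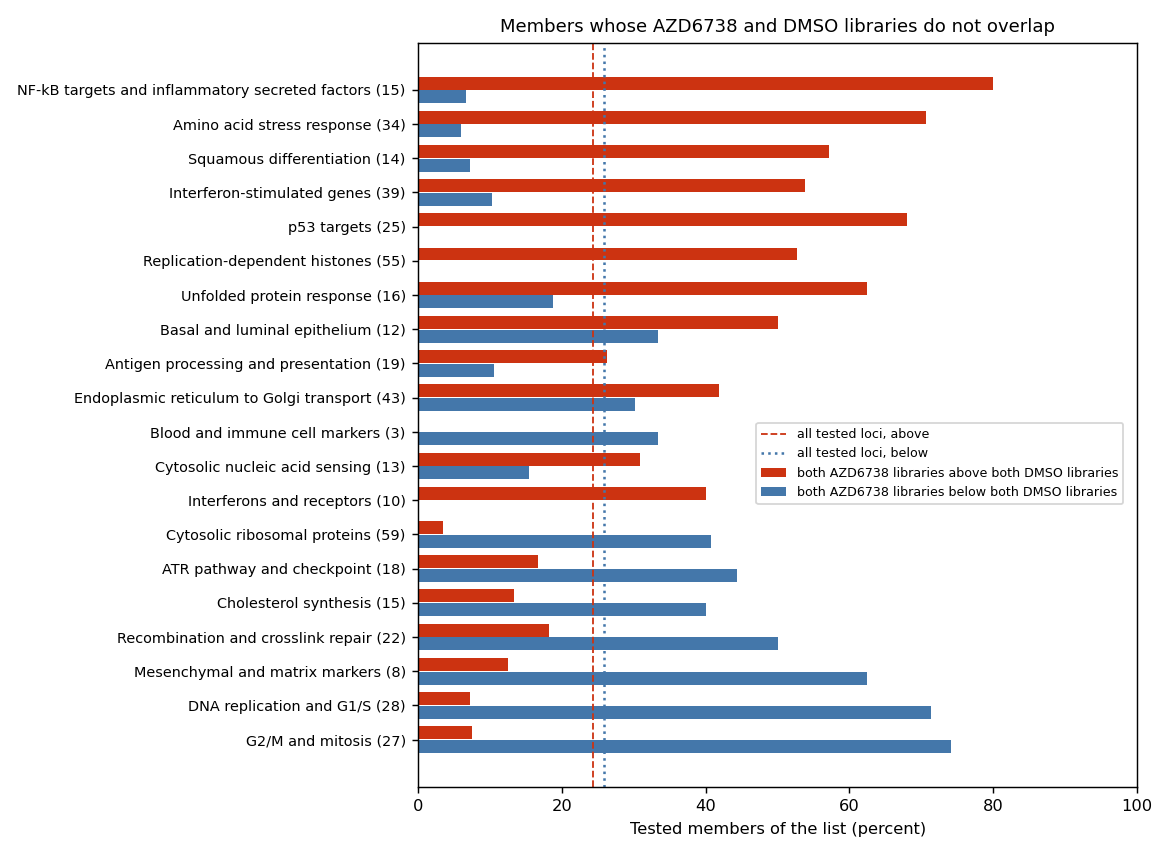
Bars give the percentage of the tested members of a list (number in brackets) for which both AZD6738 libraries lay above both DMSO libraries (red) or below both (blue), and the lines mark all tested loci at 24.3% and 25.9%. The red bar reaches 80.0% for NF-kB targets and 70.6% for the amino acid stress response, and the blue bar 74.1% for G2/M and mitosis.

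Most tested genes of the amino acid stress response lay above DMSO without overlap. This response, driven by the transcription factor ATF4, raises transporters, enzymes of amino acid synthesis and the enzymes that charge transfer RNAs when amino acids run short or the endoplasmic reticulum is stressed. Of 34 tested members, 24 (70.6%) were above DMSO without overlap and 2 (5.88%) below, and the median log2 fold change was 0.192. SLC38A2 was the only member called, while 16 were higher and 1 lower at an unadjusted p under 0.05.

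By role, all 7 genes for charging and exporting transfer RNAs were above DMSO without overlap, with a median log2 fold change of 0.19. Of 10 regulators and effectors 8 were above, with a median of 0.28, of 8 transporters 5, with a median of 0.169, and of 9 synthesis enzymes 4 were above and 2 below. ATF3, a stress-induced transcription factor, measured 1.48 and 1.288 FPKM in AZD6738 libraries, against 0.7301 and 0.8735 FPKM in DMSO libraries (adjusted p = 0.156). CHAC1, an enzyme that degrades glutathione, measured 14.43 and 12.41 FPKM with the inhibitor, against 9.123 and 5.738 FPKM with DMSO. ASNS, asparagine synthetase, measured 99.24 and 97.85 FPKM with the inhibitor, against 84.88 and 79.55 FPKM with DMSO (adjusted p = 0.441). ATF4 itself measured 396.8 and 398.3 FPKM with the inhibitor, against 394.9 and 388.9 FPKM with DMSO, a log2 fold change of 0.02. ALDH1L2, a mitochondrial enzyme of folate metabolism, went the other way at 13.2 and 12.43 FPKM with the inhibitor, against 23.44 and 21.92 FPKM with DMSO.

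A second pattern ran through this list. In 26 of its 34 members (76.5%) library A was above library B in both groups, against 28.3% of all loci, and in none was B above A in both. Its summed level was 3101 and 2958 FPKM in AZD6738 libraries and 2843 and 2587 FPKM in DMSO libraries, so the sums did not overlap. The sources used here do not say what the letters stand for, and their part in the result was not tested.

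The element that ATF4 binds together with C/EBP proteins can be read in promoters of this list. The letters TGATGNAA were searched on both strands of the 300 bases from 250 before to 50 after the start of each gene, in RefSeq promoters of GRCh38.p14. They were present in 7 of the 28 promoters that could be matched to tested members (25.0%), namely AARS1, ASNS, ATF3, CHAC1, MARS1, SLC38A1 and SLC3A2 (AARS1 and MARS1 are AARS and MARS in the table), and in 3.67% of all 27305 promoters. The promoters of ATF3 (chr1:212565157-212565456, plus strand) and ASNS (chr7:97872359-97872658, minus strand) are shown because these genes are well-studied ATF4 targets, with the match in capitals. The match begins 191 bases before the start in ATF3 and 68 bases before it in ASNS. Only 1 start per gene was searched, which for ATF3 is the outermost base of the gene (chr1:212565407-212620777). The match in ATF3 therefore need not be the element through which that gene is known as a target.
ATF3: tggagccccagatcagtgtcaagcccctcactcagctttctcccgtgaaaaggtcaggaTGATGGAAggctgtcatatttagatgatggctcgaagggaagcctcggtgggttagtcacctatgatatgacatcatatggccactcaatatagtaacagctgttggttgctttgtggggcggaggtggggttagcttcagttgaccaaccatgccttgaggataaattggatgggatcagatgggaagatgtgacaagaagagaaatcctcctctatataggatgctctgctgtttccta
ASNS: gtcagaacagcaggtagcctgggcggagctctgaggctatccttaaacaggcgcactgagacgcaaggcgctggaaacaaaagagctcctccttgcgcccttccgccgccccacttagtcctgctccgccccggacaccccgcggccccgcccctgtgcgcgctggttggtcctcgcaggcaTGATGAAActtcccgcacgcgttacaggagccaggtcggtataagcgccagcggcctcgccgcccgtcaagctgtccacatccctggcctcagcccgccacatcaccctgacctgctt
All 7 of these genes were above DMSO without overlap, at log2 fold changes from 0.15 for SLC38A1 to 0.80 for CHAC1. So were 24 of all 34 tested members (70.6%), against 24.3% of all loci. SLC38A2, the only called member, is not among the 7. The match describes the sequence and does not show that a factor was bound.

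The unfolded protein response, which raises chaperones when proteins misfold in the endoplasmic reticulum, had 10 of 16 members above DMSO and 3 below without overlap, with a median of 0.079. None was called, and 6 were higher and 0 lower at an unadjusted p under 0.05. HSPA5, the main chaperone of that compartment, measured 70.96 and 64.37 FPKM in AZD6738 libraries, against 58.77 and 52.62 FPKM in DMSO libraries (adjusted p = 0.213). XBP1, one of its transcription factors, measured 80.05 and 75.22 FPKM with the inhibitor, against 65.01 and 55.86 FPKM with DMSO (adjusted p = 0.223). Here too library A was above library B in both groups for 75.0% of members.

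Secreted inflammatory factors and other NF-kB targets had the highest share of tested members above DMSO. Only 17 of the 31 members had a symbol in the table, and CXCL8, IL1B and TNF were among those without. NF-kB is a family of transcription factors that switch on cytokines after infection or damage. Of 15 tested members, 12 (80.0%) were above DMSO without overlap and 1 below, and the median log2 fold change was 0.263. Without CXCL3 and IL6, which passed only through irradiated libraries, these were 11 of 13 (84.6%), 1 and 0.298. No member was called, and 11 were higher and 0 lower at an unadjusted p under 0.05. In 46.7% of the 15, library A was above library B in both groups, against 28.3% of all loci. CCL20, a chemokine for lymphocytes and dendritic cells, measured 13.89 and 12.97 FPKM in AZD6738 libraries, against 7.867 and 7.837 FPKM in DMSO libraries (1.71-fold, adjusted p = 0.102). CXCL1, a chemokine for neutrophils, measured 10.95 and 11.99 FPKM with the inhibitor, against 7.407 and 7.799 FPKM with DMSO (1.51-fold, adjusted p = 0.0916). EREG, a ligand of the EGF receptor, measured 5.904 and 5.274 FPKM with the inhibitor, against 4.01 and 3.546 FPKM with DMSO. NFKBIA, the inhibitor that NF-kB induces against itself, was the only one below, at 90.66 and 95.03 FPKM with the inhibitor, against 96.48 and 101.6 FPKM with DMSO. IL6 lay at or below 0.02187 FPKM in all 4 libraries.

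Of 25 tested targets of p53, the transcription factor that answers DNA damage with arrest and repair, 17 (68.0%) were above DMSO without overlap and 0 below. The median log2 fold change was 0.087, and members ran from -0.401 to 0.616. SHISA5, described above as p53-inducible and called lower with AZD6738, is not a member of this list. By the threshold none was called, while 9 were higher and 0 lower at an unadjusted p under 0.05. CDKN1A, the p21 inhibitor of cyclin-dependent kinases, measured 79.41 and 78.91 FPKM in AZD6738 libraries, against 55.16 and 53.07 FPKM in DMSO libraries (1.46-fold, adjusted p = 0.0964). GADD45A, a stress protein that binds PCNA, measured 26.77 and 25.21 FPKM with the inhibitor, against 18.73 and 17.52 FPKM with DMSO (1.43-fold, adjusted p = 0.0595). MDM2, the ubiquitin ligase that p53 induces against itself, measured 51.59 and 51.34 FPKM with the inhibitor, against 42.07 and 42.94 FPKM with DMSO (1.21-fold, adjusted p = 0.0679). GDF15, a secreted stress cytokine, measured 68.65 and 61.9 FPKM with the inhibitor, against 47.38 and 38.58 FPKM with DMSO. Of the members that promote cell death, BAX overlapped between the groups at 12.6 and 14.14 FPKM with the inhibitor and 13.47 and 12.43 FPKM with DMSO. The death receptor gene FAS did not overlap, at 20.84 and 21.28 FPKM with the inhibitor, against 20.01 and 20.05 FPKM with DMSO. BBC3 overlapped at 2.531 and 2.622 FPKM with the inhibitor and 2.671 and 2.561 FPKM with DMSO.

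**Figure D5:**
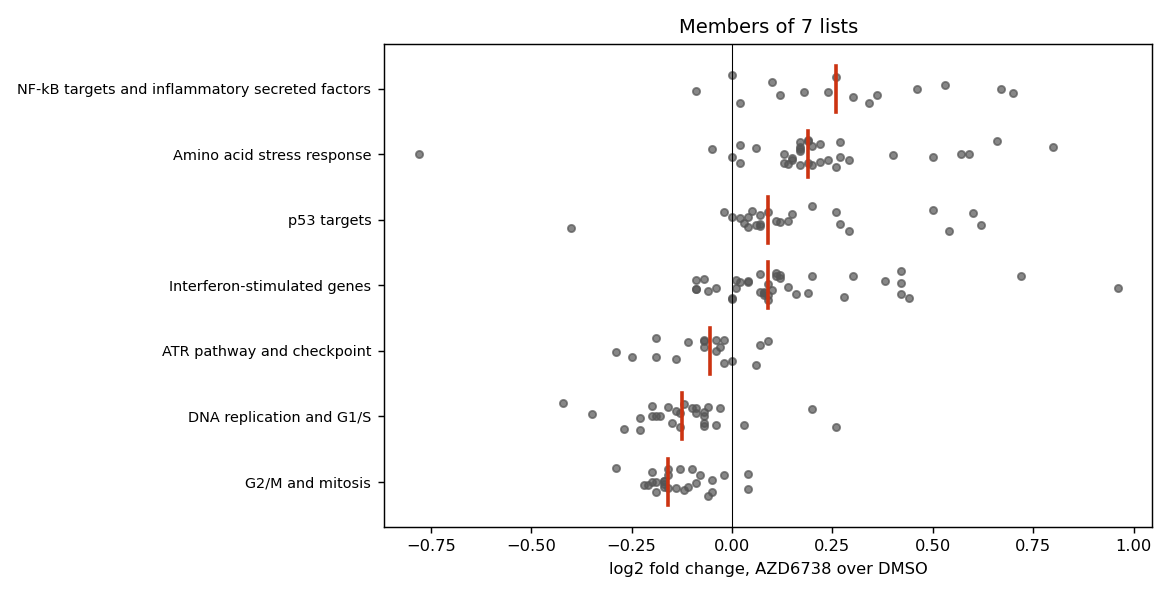
Each point is a tested member of a list, placed by its log2 fold change, AZD6738 over DMSO (x axis), and the red bar is the median. The medians run from 0.263 for NF-kB targets to -0.161 for G2/M and mitosis, and in each of the 7 lists members lie on both sides of 0.

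Most tested genes of the cell cycle lay below DMSO without overlap, by amounts that did not pass the threshold. Of 28 genes for DNA replication and the G1/S transition, 20 (71.4%) were below DMSO without overlap and 2 above, with a median log2 fold change of -0.121. Of 27 genes for G2/M and mitosis, 20 (74.1%) were below and 2 above, with a median of -0.161 (-0.105 without DMSO library A). None of either list was called. At an unadjusted p under 0.05, 11 replication genes and 12 G2/M genes were lower and 0 higher. For 44.4% of the G2/M genes library A was above library B in both groups, against 28.3% of all loci. For 11 of the 28 replication genes library B was above library A in both groups, against 3474 of 12809 loci. ORC1, the largest subunit of the origin recognition complex, measured 3.567 and 3.927 FPKM in AZD6738 libraries, against 4.932 and 5.2 FPKM in DMSO libraries (adjusted p = 0.121). CDT1, which loads the replicative helicase, measured 5.308 and 5.34 FPKM with the inhibitor, against 7.674 and 7.296 FPKM with DMSO (adjusted p = 0.14). PTTG1, the securin that guards sister chromatid separation, measured 48.83 and 51.82 FPKM with the inhibitor, against 61.49 and 61.7 FPKM with DMSO (adjusted p = 0.131). CCNB2, a mitotic cyclin, measured 13.15 and 13.73 FPKM with the inhibitor, against 15.58 and 16.03 FPKM with DMSO (adjusted p = 0.147).

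These differences were small, and CDT1 at 0.711-fold lay furthest from its DMSO level in both lists. E2F1, the transcription factor of the G1/S transition, lay above DMSO, at 1.875 and 1.814 FPKM with the inhibitor and 1.335 and 1.428 FPKM with DMSO. MKI67, the proliferation marker, measured 6.24 and 6.295 FPKM with the inhibitor and 7.426 and 6.368 FPKM with DMSO (adjusted p = 0.518). RRM2, a subunit of ribonucleotide reductase, measured 10.1 and 10.51 FPKM with the inhibitor and 11.42 and 10.6 FPKM with DMSO (adjusted p = 0.526).

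The cell cycle homology region, at which the DREAM and B-MYB complexes act on mitotic genes, has the core letters TTTGAA. On either strand these were present in 16 of 24 matched G2/M promoters (66.7%) and in 15.4% of all promoters. The promoter of CCNB2 (chr15:59104896-59105195, plus strand) is shown because CCNB2 stands among the G2/M genes with the lowest p, with the match in capitals from 29 bases before the start.
CCNB2: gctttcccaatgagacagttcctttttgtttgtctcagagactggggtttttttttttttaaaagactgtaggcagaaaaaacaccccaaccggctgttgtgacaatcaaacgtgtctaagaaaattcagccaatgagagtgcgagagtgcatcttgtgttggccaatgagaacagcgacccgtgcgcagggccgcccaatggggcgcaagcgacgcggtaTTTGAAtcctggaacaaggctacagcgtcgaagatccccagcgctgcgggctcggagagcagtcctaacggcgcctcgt
As a description of letters it says nothing about which complex was bound.

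Of 18 tested genes of the ATR pathway itself, 8 (44.4%) were below DMSO without overlap, 3 (16.7%) were above and 7 overlapped, with a median log2 fold change of -0.055. None was called, and 5 were lower and 0 higher at an unadjusted p under 0.05. In 9 of the 18, library B was above library A in both groups, against 3474 of 12809 loci. CHEK1, the kinase that ATR activates, measured 3.802 and 3.937 FPKM in AZD6738 libraries, against 4.348 and 4.787 FPKM in DMSO libraries (adjusted p = 0.251). TIMELESS, of the fork protection complex, measured 3.45 and 3.554 FPKM with the inhibitor, against 4.285 and 4.013 FPKM with DMSO (adjusted p = 0.227). CDC25C, the phosphatase that starts mitosis, measured 2.319 and 2.397 FPKM with the inhibitor, against 3.268 and 2.975 FPKM with DMSO (adjusted p = 0.213). WEE1, the kinase that opposes it, measured 2.603 and 3.025 FPKM with the inhibitor and 2.964 and 3.024 FPKM with DMSO, with overlap.

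Of 22 genes for recombination and crosslink repair, 11 were below DMSO without overlap and 4 above, with a median of -0.078 (-0.019 without DMSO library A and -0.034 without AZD6738 library B). BRIP1 was the only one that passed through irradiated libraries alone, and without it the counts were the same. RFWD3 was the only one called, and it was higher. In 45.5% of the 22, library A was above library B in both groups, against 28.3% of all loci. SMARCAL1, which remodels stalled forks, measured 5.709 and 5.678 FPKM in AZD6738 libraries, against 6.406 and 6.486 FPKM in DMSO libraries (adjusted p = 0.191). FANCF, of the Fanconi anaemia core complex, measured 5.743 and 5.552 FPKM with the inhibitor, against 6.437 and 6.408 FPKM with DMSO (adjusted p = 0.247).

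Of 55 tested replication-dependent histone genes, which are transcribed in S phase, 29 (52.7%) were above DMSO without overlap and 0 below. The median log2 fold change was 0.083, and it was 0.042 without DMSO library B, 0.125 without DMSO library A and 0.136 without AZD6738 library A. No member was called, and 13 were higher and 0 lower at an unadjusted p under 0.05. Each of the 5 classes had members above, with 4 of 5 H1 genes, 8 of 15 H2A, 8 of 14 H2B, 5 of 11 H3 and 4 of 10 H4 genes above DMSO. HIST1H3J measured 8.44 and 8.718 FPKM in AZD6738 libraries, against 4.698 and 4.853 FPKM in DMSO libraries (1.8-fold, adjusted p = 0.106). HIST1H1C, a linker histone, measured 125.9 and 125.1 FPKM with the inhibitor, against 110.7 and 106.2 FPKM with DMSO (1.16-fold, adjusted p = 0.14). Histone genes of a class are near-identical copies among which reads may have been shared, so the 55 are not separate measurements.

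Interferon-stimulated genes are the readout that the series title names. Of 39 tested members, 16 averaged under 1 FPKM in the AZD6738 and DMSO libraries and passed the filter only through irradiated libraries. Among the other 23, 11 (47.8%) were above DMSO without overlap and 4 (17.4%) below, with a median log2 fold change of 0.091. With all 39 the counts were 21 (53.8%) and 4 (10.3%) and the median was 0.088, which became 0.047 without DMSO library A and 0.134 without DMSO library B. By the threshold none was called, while 7 of the 23 were higher and 0 lower at an unadjusted p under 0.05. Levels were low where folds were near 2. ISG15, a ubiquitin-like modifier, measured 5.833 and 5.628 FPKM in AZD6738 libraries, against 1.993 and 2.984 FPKM in DMSO libraries (2.3-fold, adjusted p = 0.121). OASL, an antiviral protein related to the oligoadenylate synthetases, measured 0.8761 and 1.03 FPKM with the inhibitor, against 0.481 and 0.5182 FPKM with DMSO (1.91-fold, adjusted p = 0.0916). MX1, a GTPase that restricts viruses, measured 0.3538 and 0.4301 FPKM with the inhibitor, against 0.1169 and 0.1751 FPKM with DMSO (2.68-fold, adjusted p = 0.121). OASL and MX1 belong to the 16, and MX1 in particular was tested only because of its level in irradiated cells. The more abundant IFITM3, which blocks viral entry, measured 484.7 and 513.4 FPKM with the inhibitor, against 520 and 522 FPKM with DMSO. The summed level of the list was 853.9 and 900.2 FPKM with the inhibitor and 891.1 and 891.8 FPKM with DMSO, with overlap. In 22 of the 39 members, library B was above library A in both groups, against 3474 of 12809 loci.

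For ISG15 and MX1 the drug gave a much larger difference in irradiated cells. ISG15 measured 1604 and 1696 FPKM in AZD6738+IR libraries, against 28.56 and 35.82 FPKM in IR libraries. Its log2 fold change was 5.64 with radiation and 0.96 without, a difference of 4.68 (adjusted p = 0.000109). MX1 measured 119.8 and 122.1 FPKM in AZD6738+IR libraries, against 3.214 and 3.225 FPKM in IR libraries, and its difference between the effects was 4.57 (adjusted p = 4e-06). The core of the interferon-stimulated response element is GAAA, any 2 letters and GAAA again, and it was present on either strand in 21 of 32 matched promoters of the list (65.6%) and in 3.65% of all promoters. The promoter of ISG15 (chr1:1013247-1013546, plus strand) is shown because ISG15 has the largest log2 fold change of the list. It holds 2 overlapping matches in capitals, from 113 and from 107 bases before the start.
ISG15: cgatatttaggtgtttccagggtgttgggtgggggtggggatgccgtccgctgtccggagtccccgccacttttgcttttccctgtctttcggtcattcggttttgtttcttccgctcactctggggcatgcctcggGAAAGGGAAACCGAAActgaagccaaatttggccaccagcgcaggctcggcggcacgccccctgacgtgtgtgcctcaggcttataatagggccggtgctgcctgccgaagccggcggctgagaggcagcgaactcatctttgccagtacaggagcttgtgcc
With the inhibitor alone, interferon genes themselves were at or near 0. IFNB1, interferon beta, was listed at 0.02036 and 0 FPKM in AZD6738 libraries and at 0.02093 and 0 FPKM in DMSO libraries, and IFNL1, IFNL2 and IFNL3 were listed at 0 in all 4.

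Sensors of nucleic acids in the cytosol, which start the interferon response, lay close to DMSO. Of 13 tested, 4 (30.8%) were above without overlap and 2 (15.4%) below, with a median of 0.011 (0.034 without DMSO library A, -0.012 without DMSO library B and 0.052 without AZD6738 library A). None was called, and 3 were higher and 1 lower at an unadjusted p under 0.05. IFIH1, the sensor MDA5 of long double-stranded RNA, measured 4.683 and 4.733 FPKM in AZD6738 libraries, against 3.904 and 4.25 FPKM in DMSO libraries (adjusted p = 0.247). RNASEH2A, the catalytic subunit of an enzyme that removes RNA from DNA, measured 13.11 and 13.85 FPKM with the inhibitor, against 15.93 and 15.32 FPKM with DMSO (adjusted p = 0.244). TMEM173, which encodes STING, measured 10.07 and 10.23 FPKM with the inhibitor and 10.41 and 10.23 FPKM with DMSO. Of 10 tested interferons and receptors, IFNB1, IFNL1, IFNL2 and IFNL3 passed only through irradiated libraries. Of the other 6, all receptors or JAK1, 4 were above DMSO without overlap and 0 below, with a median of 0.076. None of the 10 was called (1 higher at an unadjusted p under 0.05). JAK1, the kinase that serves interferon receptors, measured 27.87 and 26.83 FPKM with the inhibitor, against 25.32 and 25.22 FPKM with DMSO (adjusted p = 0.316).

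In antigen processing, 5 of 19 genes (26.3%) were above DMSO without overlap and 2 below, with a median of 0.037 (-0.001 without DMSO library A and 0.019 to 0.02 without any other of the 4 libraries), and TAPBP alone was called. Without CD274 and ERAP2, which passed only through irradiated libraries, 4 of 17 were above and 2 below. HLA-B, a class I heavy chain, measured 1.678 and 1.256 FPKM in AZD6738 libraries, against 2.116 and 2.23 FPKM in DMSO libraries. HLA-C measured 17.81 and 17.79 FPKM with the inhibitor, against 17.31 and 17.41 FPKM with DMSO. Class I genes are close paralogs in a variable region, so their levels are uncertain. CD274, which encodes the checkpoint ligand PD-L1, measured 0.296 and 0.2763 FPKM with the inhibitor, against 0.1725 and 0.2312 FPKM with DMSO (adjusted p = 0.488).

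Transport from the endoplasmic reticulum to the Golgi held the called genes TRAPPC2 and MCFD2, in opposite directions. Of 43 tested members, 18 (41.9%) were above DMSO without overlap and 13 (30.2%) below, with a median of 0.019 (0.042 without DMSO library B). SEC22B, a SNARE of these vesicles, measured 11.49 and 11.82 FPKM in AZD6738 libraries, against 9.797 and 9.856 FPKM in DMSO libraries (adjusted p = 0.147). No other TRAPP gene of the list was called. TRAPPC4 measured 22.72 and 23.11 FPKM with the inhibitor, with a log2 fold change of 0.03, and TRAPPC6A had a log2 fold change of -0.23 (adjusted p = 0.393). TRAPPC3 measured 31.03 and 14.5 FPKM in its AZD6738 libraries, so its replicates stood far apart.

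Of 15 genes for cholesterol synthesis, 6 (40.0%) were below DMSO without overlap and 2 above, with a median of -0.064 (-0.032 without DMSO library B and -0.037 without AZD6738 library A). No member was called, and 1 was higher and 1 lower at an unadjusted p under 0.05. FDPS, which makes farnesyl diphosphate, measured 200.5 and 215 FPKM in AZD6738 libraries, against 180.7 and 184.3 FPKM in DMSO libraries (adjusted p = 0.187). MVK, mevalonate kinase, lay the other way at 17.14 and 18.01 FPKM with the inhibitor, against 19.78 and 20.05 FPKM with DMSO (adjusted p = 0.214). Of 59 cytosolic ribosomal proteins, 24 (40.7%) were below DMSO and 2 above, with a median of -0.027 (-0.053 without DMSO library A and -0.006 without DMSO library B), and none was called (3 lower and 1 higher at an unadjusted p under 0.05). RPS26, a small-subunit protein, measured 59.8 and 65.77 FPKM with the inhibitor, against 118.4 and 120.1 FPKM with DMSO. At 0.527-fold it was the furthest from DMSO of the 59, with adjusted p = 0.244, and the call appeared on leaving out an AZD6738+IR library (lowest adjusted p = 0.0282). RPS26 also has many processed pseudogenes, so its reads may have been shared. Library B was above library A in both groups for 41 of the 59 and for 12 of the 15 cholesterol genes, against 3474 of 12809 loci.

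Markers of epithelial state lay on both sides of DMSO. Of 14 genes of squamous differentiation, 8 (57.1%) were above DMSO without overlap and 1 below, with a median of 0.163. The median was 0.073 without AZD6738 library B and 0.281 without AZD6738 library A. Without S100A12 and SPRR3, which passed only through irradiated libraries, 8 of 12 were above and the median was 0.171. By the threshold none was called, while 4 were higher and 1 lower at an unadjusted p under 0.05. In 9 of the 14, library B was above library A in both groups, against 3474 of 12809 loci. SPRR2D, a precursor of the cornified envelope, measured 18.02 and 18.78 FPKM in AZD6738 libraries, against 10.64 and 12.16 FPKM in DMSO libraries (1.61-fold, adjusted p = 0.213). PI3, the elastase inhibitor elafin, measured 84.61 and 104.9 FPKM with the inhibitor, against 58.81 and 58.42 FPKM with DMSO (1.62-fold, adjusted p = 0.22). Of 12 basal and luminal markers, 6 were above DMSO and 4 below without overlap, and none was called (3 higher and 3 lower at an unadjusted p under 0.05). LAMB3, a laminin chain of the basement membrane, measured 214.4 and 205.6 FPKM with the inhibitor, against 161.3 and 144 FPKM with DMSO (adjusted p = 0.121). KRT15, a keratin of basal cells, measured 45.04 and 52.54 FPKM with the inhibitor, against 66.36 and 74.51 FPKM with DMSO (adjusted p = 0.121).

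Of 8 tested mesenchymal and matrix markers, 5 (62.5%) were below DMSO without overlap and 1 above, with a median of -0.081 (-0.043 without DMSO library A). None was called, and 3 were lower and 0 higher at an unadjusted p under 0.05. VIM, the filament protein vimentin that MCF10A cells also express, measured 120.8 and 133.9 FPKM in AZD6738 libraries, against 157.5 and 160.4 FPKM in DMSO libraries (adjusted p = 0.138). The summed level of these markers was 144.1 and 157.8 FPKM with the inhibitor and 183.5 and 185.5 FPKM with DMSO, and vimentin made up most of it. Of the 3 tested blood and immune markers, CD14 measured 12.74 and 13.23 FPKM with the inhibitor and 15.85 and 15.55 FPKM with DMSO. CD68 and CSF1R overlapped between the groups, with CSF1R, which passed only through irradiated libraries, at or below 0.802 FPKM in all 4 libraries. The part of cell state in the lists described above was not tested.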

How the data were processed

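The 8 libraries held total RNA without ribosomal RNA, made with a stranded kit and read from both ends, per the labels' protocols. The submitters' processing notes list FastQC, HISAT2 2.0.4, StringTie 1.3.4d and the build hg38, while no source used here gives their roles and settings. A single table of loci by libraries was deposited by the authors, already filtered. Per the file headers no unit is named. The deposited values were taken as FPKM from their form, and TPM is the other candidate, which would differ by a factor per library that the scaling alternatives cover. Every entry reached at least 1 FPKM in some library. FPKM depends on transcript length, library total and the most abundant RNAs, and depth and counting error cannot be recovered from it. Of 14944 entries, 9762 had a symbol, 217 symbols were repeated and 299 entries were left out as repeats. There were 0 value columns of no sample. Deposited p-values were not used.

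Columns were matched to groups by name. They carry letters A and B where the labels number replicates. limma 3.58.1 in R 4.3.3 was fitted to log2(FPKM + 1) with 1 coefficient per group over all 8 libraries, an intensity trend, and only loci averaging 1 FPKM or more, which gave 4 residual and 1.79 prior degrees of freedom. Tests were two-sided, adjusted by Benjamini-Hochberg over 12809 loci, 8666 of them named, and the fit was tested on simulated data. An exact permutation test of 2 against 2 libraries cannot go below p = 0.333. Coordinates and promoters came from RefSeq on GRCh38.p14, matched for 9442 named genes. Whether a library's reads were counted by strand is not given, so overlapping genes cannot always be told apart. Alternatives changed the pseudocount, filter, scaling, variance model, libraries fitted, replicate block, repeated symbols and overlapping entries, and left out each library.

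The members, gene lists and tests were chosen with earlier results of these data known. Genes were named by rule: every called gene with a symbol, the 10 next in each direction by unadjusted p among those without overlap whose higher group averaged 5 FPKM or more, up to 3 members of each of 20 lists by unadjusted p, and 16 sentinel genes. Others are marked as named after their values were seen. A gene that the rule names is not reported here.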

Additional observations from a re-analysis of the deposited data

Results flagged for a closer look

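For 10 of the 13 called genes the effect of AZD6738 differed between irradiated and non-irradiated cells by the interaction term of the limma fit, adjusted over all loci. The value given is the log2 fold change of AZD6738+IR over IR minus that of AZD6738 over DMSO. Effects that were positive without radiation and smaller or negative with it gave -1.76 for TRAPPC2, -1.42 for ZNF621, -0.87 for TAPBP, -0.85 for SLC38A2, -0.81 for IKZF5 and -0.49 for RFWD3. Effects that were negative without radiation and weaker or positive with it gave 2.06 for SHISA5, 1.96 for MCFD2, 0.41 for IRX5 and 0.32 for SNORD59B. The genes were chosen for their effect without radiation, and 35.5% of all loci passed the same test. These differences are therefore not independent of the choice. Of the 13 genes, 8 were higher and 5 lower than DMSO with AZD6738 and with IR alike, and the part of the shared DMSO libraries was not tested.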

How the results depend on the processing

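Of the 13 called genes, LRRC37BP1, MCFD2 and TRAPPC2 were called under every alternative, and these with SLC38A2, TAPBP and ZNF621 in each fit with a library left out. When only the 4 non-irradiated libraries were fitted, 18 loci were called, of which 6 were among the 19. With a mean of at least 5 FPKM required, 3 loci were called higher and 3 lower, 2 and 3 of them named. Without replicate A or B of each group in turn, calls ranged from 8 to 25 loci higher, 3 to 25 lower and 2 to 13 named genes lower. With the library letter as a replicate block, 8 loci were higher and 5 lower, 7 and 3 of them named, and the calls of COL12A1, IKZF5, IRX5, RFWD3 and SNORD59B ended (adjusted p from 0.0553 to 0.10). Deviations of libraries with the same letter correlated at -0.051 to 0.158 between groups, over 0.1 in 2 of 6 pairs of groups, so the letters were not taken to pair the libraries, although the order of A and B was shared between groups in many members of some lists. Directions turned with overlapping entries summed for ANAPC10 (0.010), IFIT1 (-0.050) and SNORD59B (0.004), and under quantile normalization for CSF1R (-0.018). For SNORD59B the sum is nearly all ATP5B, so it cannot show the direction of SNORD59B. With a library left out, log2 fold changes ran from -0.051 to 0.018 for ATR, -0.071 to 0.10 for CD68, -0.012 to 0.053 for CSF1R, -0.015 to 0.015 for IFNB1 and -0.149 to 0.011 for WEE1, and none of these 5 was called. The causes were not tested. Under the 3 scalings, medians of lists kept their sign except for interferons and receptors (-0.004 to 0.004) and blood and immune markers (-0.018 to 0.017). Over all alternatives, recombination and crosslink repair ran from -0.085 to 0.037, nucleic acid sensing from -0.012 to 0.052 and antigen processing from -0.001 to 0.048. Depth is unknown, so low genes have no counting error.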
